A study of Canis lupus familiaris with 4 samples.

Results

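FCGR1A, CD163, TLR2, TLR4, SLC11A1, ADGRE3, S100A8 and CAMP are genes of macrophage and neutrophil surface receptors, toll-like receptors and antimicrobial proteins. They were followed through every probe that carries the dog RefSeq mRNA accession of one of them, which gave 12 of the 43603 non-control probes for all 8 genes, of 925 named genes tested. CD163, TLR2, TLR4 and SLC11A1 had 2 probes each, and all 12 probes were well above background on 4 of 4 arrays in both grades. The 8 genes were chosen with earlier results of these data known, so counts over them are a description.

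The labels compare dog mammary tumours of grade 3, the most malignant, with those of grade 1, the less malignant. Both grades were hybridised together on each of 4 arrays that measure the dog transcriptome in Cy5 (red) and Cy3 (green), with grade 3 in Cy5 on 2 arrays and grade 1 in Cy5 on the other 2. The titles speak of tumours, while the protocols describe cancer cells grown with sorted monocytes for at least 72 h and then separated from them by flow sorting, and the labels do not settle whether tumour tissue or sorted cells were measured. No breed, age or genotype is given for either grade, and no treatment beyond this culture, which is given alike for all 4 arrays. Which arrays share an RNA extract is not stated. The 4 arrays shared 1 slide. The labels number the arrays as biological replicates without naming separate animals or cultures. The p-values reflect the spread between arrays of the same dye orientation, moderated by that of all tested probes. Part of this spread could be technical. In RNA from a mixture of cells, fewer cells of a type and less RNA per cell cannot be told apart.

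Myeloid cells are the macrophages, monocytes and granulocytes that patrol tissue for microbes and debris. Their surface receptors bind antibody-coated particles, haemoglobin complexes or microbial molecules, toll-like receptors pass the contact on to inflammatory gene expression, and granule and phagosome proteins then kill or starve the microbe. Macrophages and neutrophils are regular inhabitants of mammary tumours.

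Of the 8 genes, 7 were lower and 1, TLR2, was higher in grade 3 at an adjusted p under 0.05 in limma's moderated test over all probes. Across all 35411 tested probes 30.5% were called lower, 31.1% higher and 61.6% in either direction, and across the 925 named genes 46.1% were called lower, 24.1% higher and 70.2% in either direction. A call of lower with a fitted drop of at least 2-fold held for 6 of the 8 genes, for 1.75% of all tested probes and for 6.38% of named genes. The call tests against no change, and the 2-fold size itself was not tested. The median log2 fold change was -1.29 over the 8 genes, -0.09 over all named genes and 0.0045 over all tested probes. Each log2 value below is relative to the other probes of the same array. Spike-in controls had a mean log2 ratio of -0.67, and scaled on them the median of all probes became 0.67. The split of 11029 higher and 10800 lower probes became 32259 and 917 with that scaling, and 15630 and 8835 with median centring. Of the 8 genes, TLR4 alone changed sign with spike-in scaling, to 0.13, without a call (limma adjusted p = 0.206), and the other 6 lower genes had -1.52 to -0.47. Among those 6, ADGRE3 alone (-1.52) then kept a drop of at least 2-fold. Under the other alternatives CD163 came up to -0.90 and SLC11A1 to -0.98, short of 2-fold. FCGR1A, ADGRE3, S100A8 and CAMP stayed at -1.13 or lower there.

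**Figure D1:**
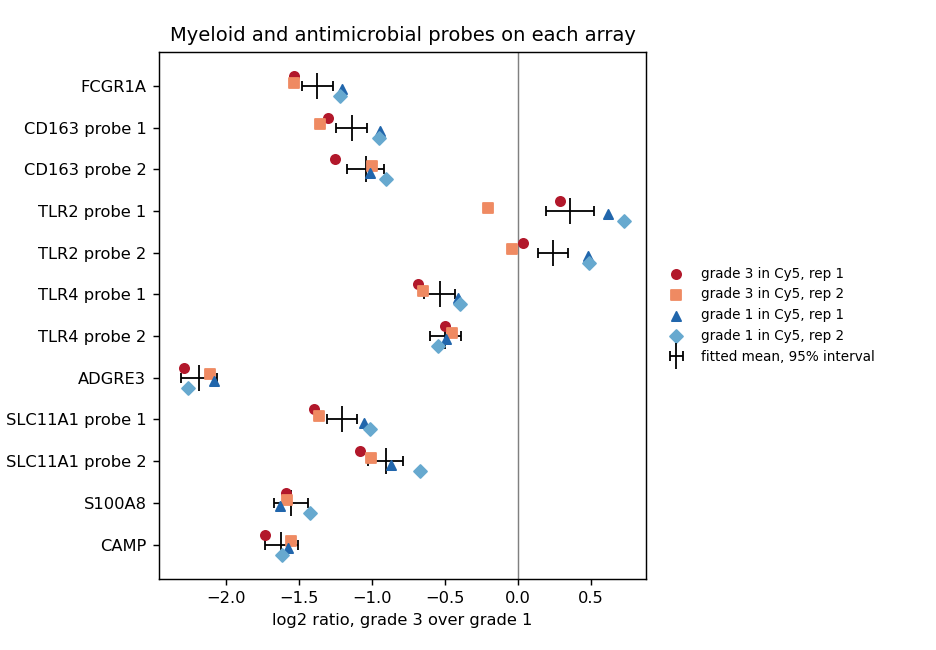
Log2 ratio of grade 3 over grade 1 (horizontal axis) for each of the 12 probes, 1 symbol per array, with the fitted mean and its 95% interval in black. Of the 12 probes 10 lie below 0 on all 4 arrays, and both TLR2 probes cross 0. The share of all tested probes with 1 sign on all 4 arrays is not given, so the count is a description.

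Both macrophage receptors fell by over 2-fold, FCGR1A by more than CD163. In what follows, levels are log2 intensities after normalization, and the 4 values of a grade come from replicates 1 and 2 with grade 3 in Cy5 and then replicates 1 and 2 with grade 1 in Cy5. FCGR1A (probe A_11_P0000019702), the high-affinity receptor for IgG on monocytes and macrophages, had levels of 11.37, 11.35, 11.54 and 11.60 in grade 3, against 12.91, 12.89, 12.75 and 12.82 in grade 1. The grades did not overlap, and every array had less signal in grade 3. Grade 3 was 2.59-fold lower, a log2 fold change of -1.37 ± 0.05 (SE, n = 4 arrays; limma adjusted p = 1.19e-08).

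CD163, the macrophage scavenger receptor for haemoglobin bound to haptoglobin, had a brighter probe (A_11_P051196) spotted 5 times per array. Its levels were 11.75, 11.71, 11.91 and 11.91 in grade 3, against 13.06, 13.06, 12.86 and 12.87 in grade 1. The log2 fold change was -1.14 ± 0.05 (SE, n = 4; limma adjusted p = 4.19e-08), or 2.21-fold lower. The second CD163 probe (A_11_P066351) had log2 ratios between -1.26 and -0.91 and a log2 fold change of -1.04 ± 0.06, so both probes of the gene gave a drop of about the same size. In the deposited log ratios, taken to log2, the 5 spots of the brighter probe had SDs of 0.013 to 0.033 within an array. Their means on the 4 arrays differed by an SD of 0.209. The normalized log2 ratios used elsewhere in the text differed between the 4 arrays by an SD of 0.220.

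That spread between arrays followed the dye. CD163 had a mean log2 ratio of -1.33 with grade 3 in Cy5 and -0.95 with grade 1 in Cy5, and FCGR1A had -1.54 and -1.21. The fit takes up such a constant offset in its dye term, and the direction was the same in both orientations.

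ADGRE3 had the largest change of the 8 genes. It encodes an adhesion G protein-coupled receptor of leukocytes, found in humans mainly on granulocytes and monocytes. Its probe (A_11_P051056) had levels of 8.06, 8.30, 8.24 and 8.10 in grade 3, against 10.35, 10.42, 10.32 and 10.36 in grade 1, so the highest grade 3 value lay 2.02 log2 units below the lowest grade 1 value. The log2 fold change was -2.19 ± 0.05 (SE, n = 4; limma adjusted p = 1.75e-09), or 4.55-fold lower, and 53 of 35411 tested probes fell further. As scanned, before any correction, the spot gave 355, 343, 309.5 and 314 intensity units in grade 3, on local backgrounds of 26 to 48.5, against 912, 1000, 1200 and 1255 units in grade 1. With outlying local backgrounds left as measured its log2 fold change was -1.57 (limma adjusted p = 0.0293), the only one of the 8 to move by over 1.5 times in fold when the background was treated differently.

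**Figure D2:**
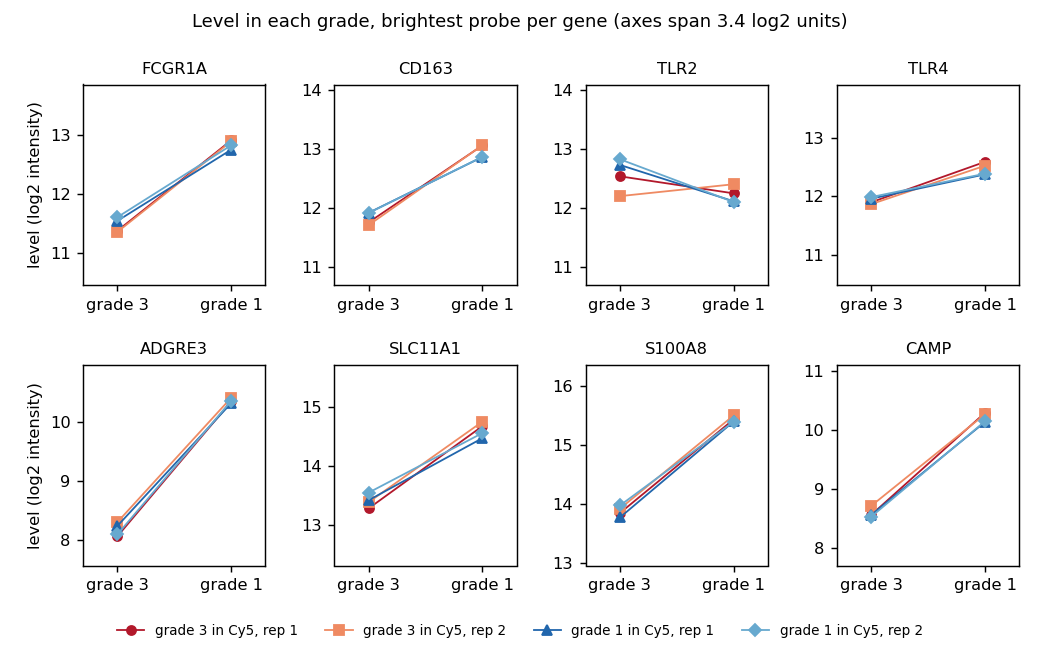
Level (vertical axis, log2 intensity after normalization) in grade 3 and grade 1 for the brightest probe of each gene, with a line joining the grades measured on the same array. For 7 genes every line runs upward toward grade 1, and for TLR2 the line of replicate 2 with grade 3 in Cy5 alone does so. No share over all tested probes is given beside this count.

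The toll-like receptors went different ways. TLR4, which senses bacterial lipopolysaccharide, was modestly lower. Its brighter probe (A_11_P0000019677) had levels of 11.90, 11.87, 11.96 and 11.99 in grade 3, against 12.59, 12.52, 12.38 and 12.39 in grade 1. The log2 fold change was -0.54 ± 0.05 (SE, n = 4; limma adjusted p = 6.14e-06), or 1.45-fold lower. The second TLR4 probe (A_11_P051121), also spotted 5 times, gave log2 ratios of -0.50, -0.45, -0.49 and -0.55. Its spots had SDs of 0.021 to 0.046 within an array in the deposited log ratios, taken to log2. The log2 fold change of this probe, -0.50 ± 0.05, differed little from that of the first.

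TLR2, which senses bacterial lipoproteins together with TLR1 or TLR6, was the only member called higher. Its brighter probe (A_11_P053706) had levels of 12.54, 12.20, 12.73 and 12.83 in grade 3, against 12.25, 12.41, 12.12 and 12.10 in grade 1. The grades overlapped, and the log2 ratios of 0.29, -0.20, 0.62 and 0.73 were above 0 on 3 of 4 arrays. The log2 fold change was 0.36 ± 0.07 (SE, n = 4; limma adjusted p = 0.00202), or 1.28-fold higher. The second probe (A_11_P052504) had log2 ratios of 0.03, -0.04, 0.48 and 0.49 and a log2 fold change of 0.24 ± 0.05.

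The rise of TLR2 rested mostly on 1 dye orientation. The mean log2 ratio of the brighter probe was 0.04 with grade 3 in Cy5 and 0.67 with grade 1 in Cy5, and that of the second probe was -0.0043 and 0.49. Without the dye term the log2 fold change was the same 0.36, since the dyes are balanced, but the call was lost (limma adjusted p = 0.0926). With outlying local backgrounds as measured it was 0.26 without a call (limma adjusted p = 0.231), where 6.57% of all tested probes were called higher and 12.5% lower. Leaving out replicate 1 with grade 3 in Cy5 gave 0.23 and leaving out replicate 2 with grade 3 in Cy5 gave 0.48, both still called.

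TLR2 lay above TLR4 on every array. The difference of their log2 ratios, TLR2 minus TLR4, was 0.89 ± 0.30 (SD, n = 4 arrays), with a range of 0.45 to 1.12. An exact two-sided sign-flip permutation test gave p = 0.125, the smallest p that 4 arrays allow. The test could not fall under 0.05 and both genes were chosen with earlier results known, so no conclusion is drawn from it.

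All 3 antimicrobial genes among the members were lower. SLC11A1, also known as NRAMP1, encodes a metal ion transporter of the macrophage phagosome that withdraws iron and manganese from engulfed microbes. Its brighter probe (A_11_P0000020211) had levels of 13.29, 13.39, 13.43 and 13.55 in grade 3, against 14.68, 14.76, 14.48 and 14.56 in grade 1. Its level in grade 3 was 2.31-fold lower, a log2 fold change of -1.21 ± 0.05 (SE, n = 4; limma adjusted p = 2.89e-08). The second SLC11A1 probe (A_11_P050346) had log2 ratios of -1.08, -1.01, -0.87 and -0.67 and a log2 fold change of -0.91 ± 0.05, lower on every array like the first, but with a 95% interval of -1.02 to -0.79 that did not reach the first probe's -1.31 to -1.10.

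S100A8 encodes the calcium-binding partner of S100A9 in calprotectin, the main cytosolic protein of neutrophils, which binds zinc and manganese away from microbes. As scanned, its spot (A_11_P0000033530) gave 21876.5, 20467, 14354 and 17786.5 intensity units in grade 3, against 27158.5, 30922.5, 44054 and 46786.5 in grade 1, on backgrounds of 31 to 52. Its levels were 13.85, 13.92, 13.77 and 13.98 in grade 3, against 15.44, 15.51, 15.40 and 15.40 in grade 1, with no overlap. The log2 fold change was -1.56 ± 0.05 (SE, n = 4; limma adjusted p = 1.12e-08), or 2.94-fold lower.

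CAMP encodes cathelicidin, the precursor of an antimicrobial peptide stored in neutrophil granules. Its probe (A_11_P0000020065) had levels of 8.56, 8.71, 8.56 and 8.53 in grade 3, against 10.29, 10.27, 10.14 and 10.15 in grade 1, again without overlap. CAMP was 3.08-fold lower in grade 3, a log2 fold change of -1.62 ± 0.05 (SE, n = 4; limma adjusted p = 7.6e-09). With outlying local backgrounds as measured it was -1.18 (limma adjusted p = 0.0269). Unlike CD163 and FCGR1A, the 3 genes ADGRE3, S100A8 and CAMP had nearly equal mean log2 ratios in both orientations: -2.20 and -2.17 for ADGRE3, -1.59 and -1.53 for S100A8, and -1.64 and -1.60 for CAMP, each with grade 3 in Cy5 and then with grade 1 in Cy5.

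Ordered by the size of the drop, the genes ran ADGRE3, CAMP, S100A8, FCGR1A, SLC11A1, CD163 and TLR4. The 95% interval of ADGRE3 (-2.31 to -2.06) did not meet that of CAMP (-1.74 to -1.51), and that of CD163 (-1.25 to -1.04) did not meet that of TLR4 (-0.64 to -0.43). Between these ends each interval overlapped that of its neighbour: S100A8 had -1.67 to -1.44, FCGR1A -1.48 to -1.27 and SLC11A1 -1.31 to -1.10. These intervals take each gene alone, so their overlap does not settle the order of neighbours, and differences between neighbours were not tested. The place of CAMP also depended on the background: with outlying local backgrounds as measured its -1.18 was a smaller drop than the -1.36 of FCGR1A and the -1.22 of SLC11A1, and close to the -1.16 of CD163.

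**Figure D3:**
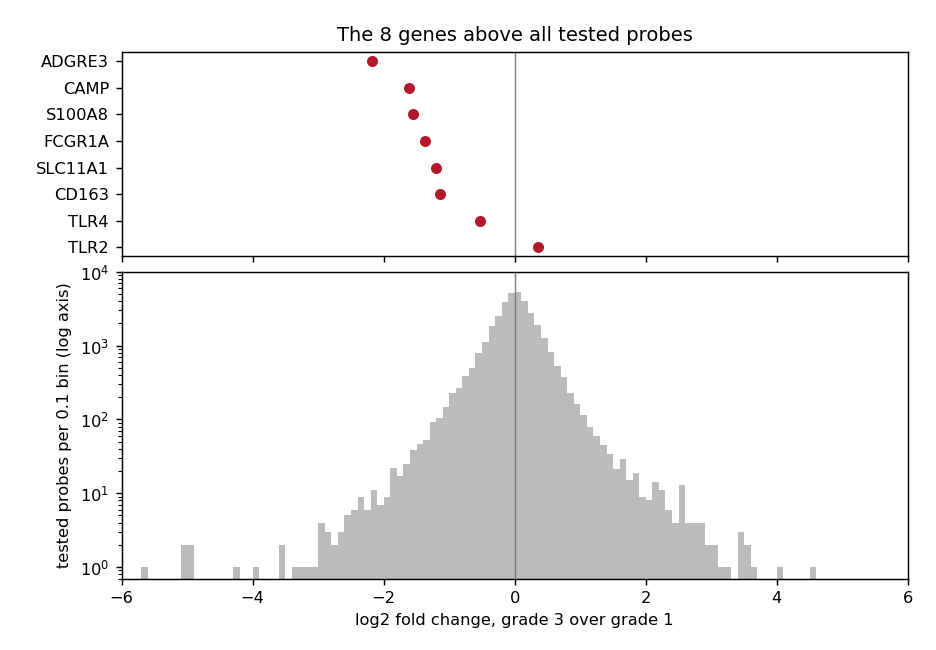
Log2 fold change of grade 3 over grade 1 (horizontal axis) of the 8 genes by their brightest probe (upper panel) above the distribution of all 35411 tested probes (lower panel, number per bin of 0.1, log axis). ADGRE3, CAMP, S100A8 and FCGR1A have fewer than 1% of tested probes below them, and TLR2 lies inside the bulk, with 86.9% below it.

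Most other measured toll-like receptors and signalling genes of their pathway were lower, by less than every lower member except TLR4. Only TLR1 passed the -0.54 of TLR4. Of 39 listed genes of that pathway outside the members, 7 were measured, of which 6 were lower, 0 higher and 1 was not called, with a median log2 fold change of -0.27. TLR1, the partner of TLR2, was lower by the most, with log2 ratios of -0.64, -0.63, -0.67 and -0.59 and a log2 fold change of -0.63 ± 0.05 (limma adjusted p = 2.14e-06). TLR7, an endosomal sensor of single-stranded RNA, had -0.39 ± 0.05, and MAPK14, the p38 alpha kinase, -0.38 ± 0.05. TLR9, which senses unmethylated CpG DNA, had -0.27 ± 0.06, and TLR10 -0.23 ± 0.05. TLR5, the flagellin receptor, had 0.02 ± 0.05 and was not called (limma adjusted p = 0.761). The calls of TLR7, TLR9, TLR10 and MAPK14 were lost with outlying local backgrounds as measured, which left 2 of the 7 genes called lower, and all 6 calls were lost or turned with spike-in scaling, where the median was 0.40.

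Other myeloid surface receptors fell almost throughout. Of 47 listed genes 12 were measured, of which 11 were lower, 0 higher and 1, CD80, was not called by its brighter probe (-0.03 ± 0.05), with a median log2 fold change of -0.79. The second CD80 probe had -0.61 ± 0.05 and was called lower, so the probes of that gene disagreed. C5AR1, the receptor for the complement fragment C5a that draws in neutrophils, had log2 ratios of -1.42, -1.31, -1.56 and -1.88 and was 2.91-fold lower (log2 fold change -1.54 ± 0.06, limma adjusted p = 3.13e-08). ADGRE2, of the same receptor family as ADGRE3, was 2.87-fold lower (-1.52 ± 0.06), and CD40, a costimulatory receptor of antigen-presenting cells, 2.02-fold lower (-1.02 ± 0.05). ADGRE2 and ADGRE3 are close relatives, and probes for them may share signal. With outlying local backgrounds as measured 7 of the 12 were called lower, and with spike-in scaling 5 were lower and 3 higher.

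**Figure D4:**
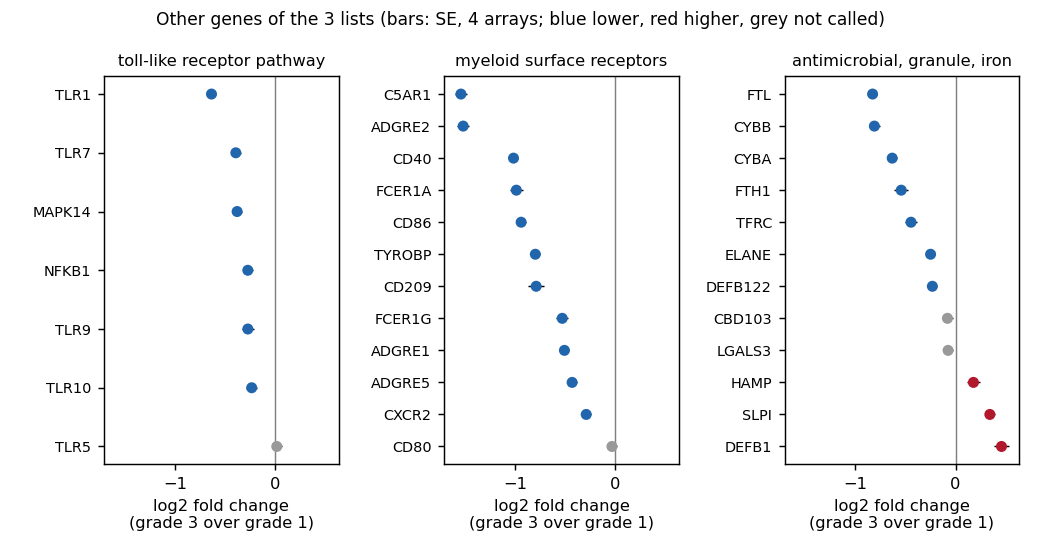
Log2 fold change of grade 3 over grade 1 (horizontal axes) with its SE for the measured genes of 3 lists outside the 8 genes. Of 12 surface receptors 11 are called lower, of 7 toll-like receptor pathway genes 6, and of 13 antimicrobial, granule and iron-handling genes 8, with 3 called higher; 1 of the 8 is not drawn.

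Antimicrobial, granule and iron-handling genes outside the members were split. Of 45 listed genes 13 were measured, of which 8 were lower, 3 higher and 2 not called, with a median of -0.25. FTL, the ferritin light chain, was 1.78-fold lower (log2 fold change -0.83 ± 0.05, limma adjusted p = 3.55e-07). CYBB, the catalytic subunit of the phagocyte NADPH oxidase, was 1.75-fold lower (-0.81 ± 0.05). SLPI, a secreted protease inhibitor of epithelia, was higher at 0.34 ± 0.05, with log2 ratios above 0 on all 4 arrays. DEFB1, an epithelial beta-defensin, was called higher too, but its probe was well above background on 4 arrays in grade 3 and on 1 array in grade 1, so it entered the test only through grade 3. Its fitted 0.46 ± 0.07 therefore rests on dim grade 1 signals, and its call was lost with outlying local backgrounds as measured (limma adjusted p = 0.179). Over the 11 genes well above background in both grades, 7 were lower and 2 higher, with a median of -0.45. With spike-in scaling 0 of the 13 were lower and 8 were higher.

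Macrophage and neutrophil marker lists were lower in grade 3, but they hold 5 of the members, which carry most of their summed level. Of 14 listed macrophage and monocyte markers 3 were measured and all 3 were lower, with summed levels of 8504 to 9600 intensity units in grade 3, against 18832 to 20707 in grade 1. Of 14 neutrophil markers 6 were measured and all 6 were lower, with sums of 17480 to 19643 in grade 3 against 50269 to 54600 in grade 1. Without the members the macrophage sum was 2389 to 2641 in grade 3 against 4316 to 4509 in grade 1, and the neutrophil sum 2638 to 2882 in grade 3 against 4596 to 5472 in grade 1. Outside the members only CYBB, CXCR2 (-0.29 ± 0.05), ELANE (-0.25 ± 0.05) and MMP9 were measured. The 4 MMP9 probes disagreed in size, at -0.92, -0.80, -0.16 and -0.11, the last without a call. No measured marker of either list was below background, and CD14, CSF1R, CD68, ITGAM, S100A9 and MPO were not analysed here.

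Lymphocyte and mast cell markers were lower too. All 7 measured T and NK cell markers were called lower. Their sums were 1155 to 1200 in grade 3 against 1663 to 1811 in grade 1. For 1 of the 7, no grade 3 array gave a signal clear of background, so it entered the test only through grade 1. The call of that marker and its share of the grade 3 sum rest on dim signals. CTLA4, the brightest of the 7, had -0.77 ± 0.06. The CTLA4 call was lost with outlying local backgrounds as measured (-0.51, limma adjusted p = 0.0632) and with spike-in scaling (-0.10, limma adjusted p = 0.33). Both B cell markers were lower (1577 to 1828 against 2357 to 2705), with CD38, the brighter, at -0.48 ± 0.05 and the other at -1.55. Lower too were 3 of 4 mast cell markers (3434 to 3540 against 5014 to 5597), with FCER1A, the alpha chain of the IgE receptor, at -0.99 ± 0.06. Their part in the result for the 8 genes was not tested.

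Markers of other tissues went in several directions. Of 5 fibroblast and matrix markers 4 were lower, with COL1A2 at -0.54 ± 0.06, and of 5 endothelial markers 4 were lower and 1 higher, with VWF at -0.30 ± 0.05. Of 4 adipocyte markers 3 were lower, while CD36, the brightest, had 0.08 ± 0.05 without a call, and of 4 red cell markers 2 were lower, with RHAG at -0.31 ± 0.05. COL1A2 and RHAG changed sign with the dye: COL1A2 had log2 ratios of -0.06 and 0.32 with grade 3 in Cy5 and -1.28 and -1.17 with grade 1 in Cy5, and RHAG had 0.44 and 0.43 and then -1.08 and -1.02. All 4 keratinocyte markers were higher, with KRT1 at 0.85 ± 0.05. Of 7 skeletal muscle markers 6 were higher, with log2 fold changes from -0.14 to 4.55 and a median of 1.78. DMD, the brightest of them, had 0.16 ± 0.05 by its brightest probe and -0.08 by the mean of its 10 probes. The DMD call was lost with outlying local backgrounds as measured (limma adjusted p = 0.621), without the dye term (0.0741) and without replicate 2 with grade 1 in Cy5 (0.137). Median centring ended the calls of VWF (-0.07, limma adjusted p = 0.283) and RHAG (-0.09, 0.122), RHAG also lost its call with outlying local backgrounds as measured (0.0503), and COL1A2 (0.149) and RHAG (0.427) lost theirs without the dye term. Of 5 luminal epithelial markers, which bear on the labelled tissue, 2 were higher, 1 lower and 2 not called, CLDN3 at 0.11 ± 0.05 among the last. Luminal log2 fold changes ran from -0.57 to 1.86. The part of these markers in the result was not tested either.

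The named genes most like the members were found from the 4 arrays alone. The median log2 ratio over the 8 genes was -1.47 and -1.45 on the arrays with grade 3 in Cy5 and -1.13 and -1.12 on those with grade 1 in Cy5. CTSC lay nearest to this profile, with log2 ratios of -1.49, -1.51, -1.18 and -1.31 and a root mean square difference of 0.106 log2 units. TNFSF10 followed at 0.119, LTB at 0.120, KLK6 at 0.121 and the locus LOC448801 at 0.142. All these points share the same 4 hybridisations and their dye offsets.

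**Figure D5:**
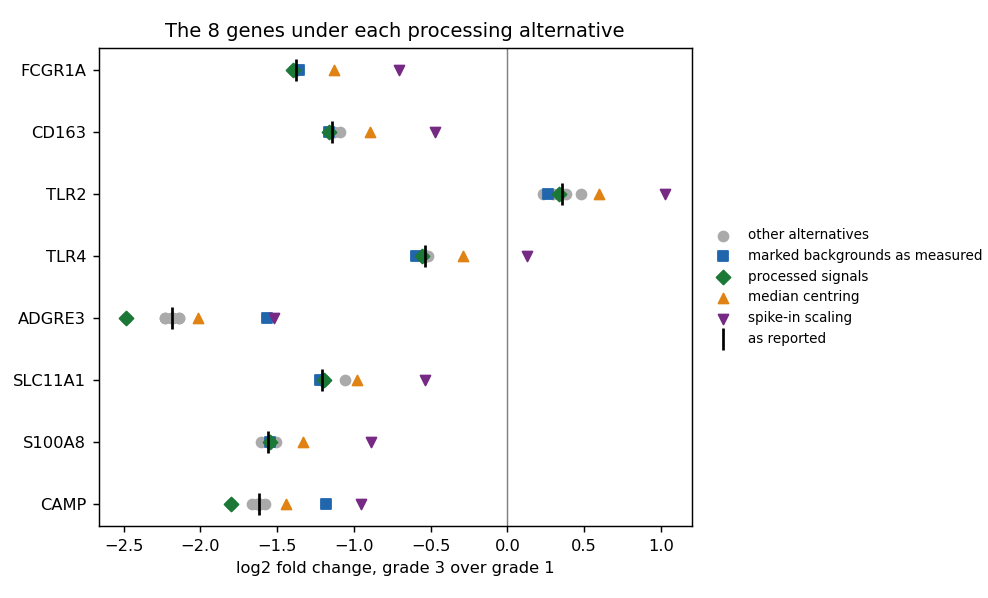
Log2 fold change of grade 3 over grade 1 (horizontal axis) of each of the 8 genes as reported (black bar) and under each processing alternative. TLR4 crosses 0 with spike-in scaling, and TLR2 stays above 0 under every alternative run.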

How the data were processed

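The authors read the spots with Feature Extraction 10.7.3.1, as the submitters' processing notes name it. Median signals and local backgrounds are raw intensity values per the file headers. Processed signals are deposited as intensity values that the software had corrected and dye-normalized, and the deposited LogRatio is log10 of Cy5 over Cy3. The deposited series table holds log10 ratios that matched LogRatio within 4.99e-06 once swapped arrays were turned.

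R 4.3.3 and limma 3.58.1 were used. Local backgrounds marked as outliers took the median background of that array and channel, which was chosen with both sets of counts known. Normexp with an offset of 50 and loess followed, with control spots at weight 0. Marked spots (11 to 39 per array) were left out and spots of a probe averaged. Probes well above background on 4 arrays in at least 1 grade were tested (35411 of 43603) with a grade and a dye term, eBayes, two-sided, with Benjamini-Hochberg adjustment at 0.05. Levels are single channels after Aquantile. Median signals were 289 to 402 units in Cy5 and 215 to 354.5 in Cy3, on backgrounds of 28 to 41, with 80.6% to 84.5% of probes per channel well above background. Precision is limited by having 4 arrays.

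RefSeq accessions of the assembly UU_Cfam_GSD_1.0 named 1648 probes. The brightest probe stood for its gene. The members and lists were chosen with earlier results of these data known. Beside the members, the text names the toll-like receptors measured, up to 3 called genes per list and direction with 1 sign on all arrays, the 5 genes nearest to the members and the brightest marker of each cell type. CD80, CXCR2, ELANE and MMP9 were named after their values were seen, and 1 gene that the rule names is not reported here. Data were simulated for 35411 probes with independent noise of each probe's fitted size, a constant dye offset and 200 changed probes. Of these, 50 of 50 probes changed 1.25-fold were recovered, with 17 unchanged probes called. Shared array effects, outlying backgrounds and a large share of changed probes were not simulated, so error rates in the real data were not tested. Alternatives covered background, normalization, dye term, filter, replicate number, single arrays and probe choice.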

Additional observations from a re-analysis of the deposited data

Results flagged for a closer look

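The 4 values of each named result were searched for an array far from the others by Dixon's test, in 65 sets of log2 ratios and levels, and 3 passed its critical value. Chance marks about 1 set in 20. For CAMP the grade 3 level of replicate 2 with grade 3 in Cy5 was 8.71, against 8.56, 8.56 and 8.53 on the other arrays (gap over range 0.834). For the second TLR2 probe (A_11_P052504) the grade 1 level of replicate 1 with grade 1 in Cy5 was 9.23, against 9.45, 9.44 and 9.48, a gap of 0.833 of the range. For CTLA4 the log2 ratio of replicate 2 with grade 3 in Cy5 was -0.57, against -0.84, -0.84 and -0.82 (gap over range 0.907).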

How the results depend on the processing

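With outlying local backgrounds left as measured, 2328 probes were higher and 4418 lower in grade 3, 0 of the 8 genes were higher, and TLR2 had 0.26 (limma adjusted p = 0.231). Of the lists, 2 toll-like receptor pathway genes and 7 surface receptors were then lower and 1 antimicrobial gene higher, with medians of -0.68 for surface receptors and -0.15 for antimicrobial genes, and CD36 turned to -0.013. Without the dye term TLR2 kept 0.36 but lost its call, leaving 0 of the 8 genes higher. Spike-in scaling gave 32259 higher and 917 lower probes. It turned TLR4 to 0.13 and its second probe to 0.17, TLR1 to 0.033, TLR7 to 0.28, TLR9 to 0.40, TLR10 to 0.43, MAPK14 to 0.29, CD38 to 0.19, COL1A2 to 0.12, RHAG to 0.36 and VWF to 0.37. In the toll-like receptor list 6 genes were then higher and 0 lower (median 0.40), in the surface receptor list 3 higher and 5 lower (-0.13), and in the antimicrobial list 8 higher and 0 lower (0.42). That scaling moves all log ratios up together. Median centring gave 1 higher surface receptor (median -0.58), 5 higher antimicrobial genes and -0.17 for TLR5. The processed signals and the series table both gave medians of -0.43, -0.89 and -0.51 for the toll-like receptor, surface receptor and antimicrobial lists and -0.045 for TLR5. Requiring both grades above background moved the antimicrobial median to -0.45, and the mean over probes turned DMD to -0.082. Leaving out 1 array gave medians of -0.85 to -0.72 for surface receptors. Other causes were not tested. The 7 lower genes kept direction and call under every alternative run, except TLR4 with spike-in scaling.

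Arrays of both orientations carry replicate numbers 1 and 2, and the correlation of same-numbered deviations was -0.09. That value does not settle whether same-numbered arrays share an RNA extract. With the replicate block as a fixed term 10921 probes were higher and 10640 lower, with same-numbered arrays averaged 11620 and 11272, and no call of the 8 genes changed. The replicate number as a random block was not run, since its correlation could not be estimated from 4 arrays. Signal over background was 7.32 or more for each of the 12 probes, with the lowest at ADGRE3.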
